A study of Mus musculus with 8 samples.

Results

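RNA of leukocytes, and of macrophages above all, was followed in ovarian granulosa cell preparations through 10 marker genes: Ptprc, Cd52, Csf1r, Aif1, C1qa, C1qb, C1qc, Fcer1g, Cd68 and Laptm5. These were taken by gene symbol from a table of 23235 symbols, and all 10 were found. The table held FPKM (a level corrected for transcript length and sequencing depth) in 8 libraries of total RNA from mouse granulosa cells, the somatic cells around the oocyte. All libraries came from female C57BL/6 mice. The 4 groups of 2 libraries were wild type (WT) without treatment, WT at 44 h after PMSG (equine gonadotropin, which acts like FSH), CNOT6/6L knockout (KO, labelled as a Cnot66l double knockout) without treatment, and KO at 44 h after PMSG. Libraries without PMSG are called untreated or 0 h, the others treated or 44 h. The labels gave no age, no Cre driver or allele, no PMSG dose and nothing on whether replicates were separate or pooled animals. The p-values here therefore measure the spread among these libraries alone, and that spread may be technical.

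Macrophages live in the ovarian stroma and around growing follicles, and they enter follicles that undergo atresia, where they take up dying granulosa cells. Granulosa cells themselves are epithelial-like somatic cells and are not of the blood lineage, so the genes named here are used as markers of immune cell RNA. Resident macrophages depend on CSF1R signalling and are a main source of C1q, the protein that starts the classical complement pathway. In bulk RNA, more cells of a type and more RNA per cell cannot be told apart.

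Relative depth, read from the steps between low FPKM values, was 0.904 to 1.255 of the median library, and FPKM do not carry absolute counts. Granulosa markers were abundant in each library, with Inha between 8434 and 23238 FPKM. Between the 2 KO libraries at 44 h, 11.2% of tested genes were at least 2-fold apart, against 2.32% to 3.16% within the other groups. Cnot6, a targeted gene, was 26.7 FPKM in the treated library labelled KO replicate 1, between the treated WT libraries (26.0 and 26.9), and 17.4 in replicate 2. Untreated libraries had 11.7 and 12.01 with the KO label and 29.1 and 18.4 with the WT label. Cnot6l, the other targeted gene, was 6.11 and 7.07 in untreated WT, 4.69 and 1.97 in untreated KO, 4.20 and 2.63 in treated WT and 2.01 and 1.61 in treated KO. The treated library labelled KO replicate 1 thus went against its label on Cnot6, and the medians of the 10 genes that rest on it are given without it too.

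Reference windows before the transcription start (250 bases, RefSeq, build GRCm38.p6) were used for 7 of the 10 genes. These were Aif1, C1qb, C1qc, Cd68, Fcer1g, Laptm5 and Ptprc. The other genes of the set were left out, so the count below holds for the 7 alone. Genes of the myeloid lineage are commonly bound by PU.1, a factor whose sites contain a purine-rich core. The letters GAGGAA were searched on both strands, where the other strand reads TTCCTC. They were present in a window of 6 of the 7 genes, Fcer1g being the exception, while 25.9% of all genes with a window held them in at least 1 window. A match is a string of letters only, not a measured binding site. The windows of C1qb (chr4:136886201-136886450, minus strand) and Cd68 (chr11:69666171-69666420, minus strand), which hold a match each (in capitals, 30 and 225 bases before the start), are shown beside that of Fcer1g (chr1:171234350-171234599, minus strand), which holds none. They are chosen because these genes carry separate roles: a complement chain, a lysosomal protein and a receptor signalling chain.
C1qb: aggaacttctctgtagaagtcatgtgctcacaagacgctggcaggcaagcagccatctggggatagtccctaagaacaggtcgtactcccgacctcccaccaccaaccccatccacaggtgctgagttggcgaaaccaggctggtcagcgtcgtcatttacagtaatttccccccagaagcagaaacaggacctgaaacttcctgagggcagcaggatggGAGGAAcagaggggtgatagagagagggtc
Cd68: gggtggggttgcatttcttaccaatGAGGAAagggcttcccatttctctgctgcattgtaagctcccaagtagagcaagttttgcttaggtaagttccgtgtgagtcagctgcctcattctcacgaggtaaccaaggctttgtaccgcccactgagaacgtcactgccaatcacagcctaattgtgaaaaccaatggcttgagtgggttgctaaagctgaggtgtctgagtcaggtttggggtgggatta
Fcer1g: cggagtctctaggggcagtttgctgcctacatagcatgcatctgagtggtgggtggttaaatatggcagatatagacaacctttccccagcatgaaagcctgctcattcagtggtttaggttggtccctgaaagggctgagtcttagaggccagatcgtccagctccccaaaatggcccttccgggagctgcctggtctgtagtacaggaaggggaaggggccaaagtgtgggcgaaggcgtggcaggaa

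The 3 C1q chains were the genes of complement initiation in this set, and C1qb was the most abundant of the 10 in mean FPKM (48.6 over the 8 libraries). The neighbouring genes C1qa, C1qb and C1qc each encode a chain of the same multimeric protein. C1qa was 14.1 and 11.9 FPKM in untreated WT, 20.3 and 13.4 in treated WT, 43.6 and 8.42 in untreated KO, and 29.7 and 26.1 in treated KO (replicate 1, then replicate 2). C1qc was 23.7 and 21.2 in untreated WT, 29.4 and 22.2 in treated WT, 79.7 and 14.0 in untreated KO, and 48.1 and 44.4 in treated KO. Both genes were thus highest in untreated KO replicate 1 and lowest in untreated KO replicate 2, with all WT libraries between. C1qb was 30.0 and 29.3 in untreated WT, 36.3 and 29.1 in treated WT, 101 and 40.5 in untreated KO, and 67.2 and 55.9 in treated KO. C1qb was the 1 gene of the 10 in which all 4 KO libraries lay above all 4 WT libraries (2.14% of tested genes did so).

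Of the surface receptors and their signalling chain, Fcer1g was the most abundant. It encodes the ITAM-bearing gamma chain that Fc receptors signal through. Fcer1g was 26.0 and 19.7 FPKM in untreated WT, 40.2 and 37.2 in treated WT, 61.5 and 16.1 in untreated KO, and 59.6 and 60.8 in treated KO. Its libraries at 44 h were close together within each genotype, and those of untreated KO were far apart. Csf1r, the receptor for the macrophage growth factors CSF1 and IL-34, was 2.16 and 1.81 in untreated WT, 4.70 and 2.82 in treated WT, 4.91 and 1.29 in untreated KO, and 2.64 and 4.86 in treated KO. Its groups overlapped in both genotype comparisons. Csf1r shares exon bases with Hmgxb3 on the opposite strand in GENCODE M21, which was 3.63 to 5.80 FPKM, and the strand handling of the reads is not given in the sources used here, so the Csf1r level is uncertain.

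Ptprc encodes CD45, the phosphatase found on nearly all nucleated blood cells, and it was the lowest of the set. Ptprc was 0.752 and 0.634 FPKM in untreated WT, 1.06 and 0.566 in treated WT, 1.84 and 0.560 in untreated KO, and 0.837 in the treated library labelled KO replicate 1 and 2.76 in replicate 2. It reached 1 FPKM in 3 of the 8 libraries, and the other 9 genes did so in all 8. Cd52, a short GPI-anchored surface glycoprotein of lymphocytes and myeloid cells, was 10.6 and 9.36 in untreated WT, 31.7 and 18.9 in treated WT, 32.6 and 6.11 in untreated KO, and 46.4 and 65.4 in treated KO. Its 2 highest libraries were those of treated KO. Cd52 shares exon bases with Crybg2 on the opposite strand in GENCODE M21; that gene, listed as Aim1l, was at most 0.153 FPKM.

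The intracellular markers repeated the split of untreated KO. Cd68, a lysosomal glycoprotein of macrophages, was 14.3 and 17.7 FPKM in untreated WT, 15.4 and 14.3 in treated WT, 60.2 and 10.5 in untreated KO, and 24.0 and 21.6 in treated KO. Laptm5, a lysosomal membrane protein of blood cells, was 3.05 and 4.01, 5.24 and 4.41, 13.3 and 2.73, and 7.45 and 7.58 in the same order. Aif1, which encodes the actin-binding protein IBA1, was 4.99 and 3.10, 8.22 and 5.50, 14.1 and 3.84, and 9.34 and 8.80. In all 3 genes untreated KO replicate 1 was the highest library.

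**Figure D1:**
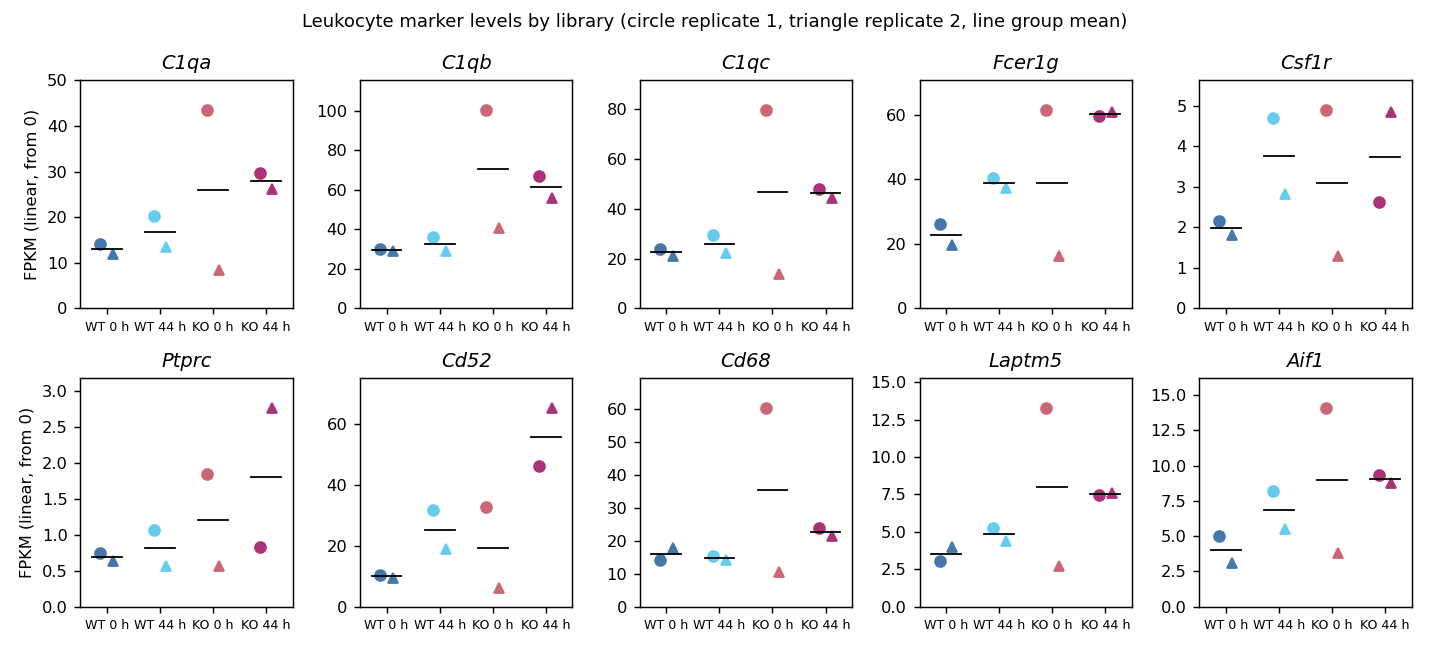
FPKM of each of the 10 genes (vertical axes, linear from 0, a scale per gene) in the 4 groups (horizontal axis), with circles for replicate 1, triangles for replicate 2 and lines for group means (n = 2). The KO 0 h circle lies far above its triangle in each panel, as for C1qc at 79.7 against 14.0 FPKM.

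Summed over the 10 genes, the level was 129.7 and 119 FPKM in untreated WT, 192 and 148 in treated WT, 412 and 104 in untreated KO, and 295 and 298 in treated KO. The sums amounted to 0.0153% to 0.0610% of all FPKM in a library. Untreated KO replicate 1 was the highest of the 8 libraries for 8 of the 10 genes (it was so for 23.8% of tested genes), and untreated KO replicate 2 was the lowest for 8 (11.6%). Within untreated KO, replicate 1 exceeded replicate 2 in 10 of 10 genes (57.9% of tested genes), by 2.48-fold (C1qb) to 5.71-fold (Cd68), with a median of 4.35-fold. On the log2(FPKM + 1) scale 9 of the 10 were at least 2-fold apart in that group, all but Ptprc, against 3.16% of tested genes. Within WT 0 of the 10 were 2-fold apart (2.32% of tested genes at 0 h and 2.79% at 44 h), although replicate 1 was the higher at 44 h in 10 of 10 (58.3%), and in treated KO 1 was, Ptprc, which was higher in replicate 2. Ptprc was 0.837 and 2.76 FPKM in that pair, in which 11.2% of tested genes were as far apart.

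Whether leukocyte RNA differs between genotypes without PMSG was asked by comparing KO with WT at 0 h. No gene of the 10 passed, and the 2 KO libraries lay on opposite sides of WT in most of them. Replicate 1 was above both WT libraries in 10 of 10 genes (46.6% of tested genes), and replicate 2 was below both in 8 (34.9%). C1qb was the 1 gene with both KO libraries above WT (27.3% of tested genes). Differences of group means on the log2(FPKM + 1) scale were above 0 in 10 of 10 genes (54.6% of tested genes), from 0.30 (Csf1r) to 1.08 (C1qb), with a median of 0.56 against 0.034 over all tested genes. For C1qb the KO mean was 70.6 ± 42.5 FPKM and the WT mean 29.7 ± 0.525 (SD, n = 2), a difference of 1.08 (SE 0.381, limma adjusted p = 0.462, unadjusted p = 0.0246), at 0.44 without KO replicate 1 and 1.73 without KO replicate 2. Limma called 0 of the 10 at an adjusted p under 0.05, as against 0.0365% of the 13688 tested genes. C1qb was also the 1 gene of the 10 with an unadjusted p under 0.05 (9.69% of tested genes). The median was -0.42 without KO replicate 1 and 1.64 without KO replicate 2, so its direction rested on which KO library was kept.

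At 44 h after PMSG, leukocyte markers lay higher in KO than in WT in most of the 10 genes, and none passed the test. The 2 KO libraries were above both WT libraries, with no overlap, in 8 of the 10 (23.9% of tested genes): C1qa, C1qb, C1qc, Fcer1g, Cd52, Cd68, Laptm5 and Aif1. The same 8 genes were higher in these 2 libraries than in all 4 WT libraries, 0 h included (4.89% of tested genes). For Fcer1g the KO mean was 60.2 ± 0.880 FPKM and the WT mean 38.7 ± 2.11 (SD, n = 2), a difference of 0.62 (log2, SE 0.524, adjusted p = 0.691). Cd52 was 55.9 ± 13.4 and 25.3 ± 9.03, the furthest apart of the 10 at 1.14 (SE 0.654, adjusted p = 0.582). The difference was above 0 in 9 of the 10 (55.5% of tested genes), with a median of 0.60 against 0.046 over all tested genes. Csf1r was 3.75 ± 1.57 and 3.76 ± 1.33, a difference of -0.015, and its 95% interval of -1.13 to 1.10 leaves a change of about 2-fold in either direction possible.

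Limma called 0 of the 10 at 44 h (0.0219% of tested genes), and 0 had an unadjusted p under 0.05 (9.79%). The model pools the spread of all 4 groups, so the wide gap between the KO libraries at 0 h enters the standard errors of this comparison. Without the treated library labelled KO replicate 1 the median was 0.64, and KO replicate 2 alone lay above both WT libraries in 10 of 10 genes (41.9% of tested genes).

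**Figure D2:**
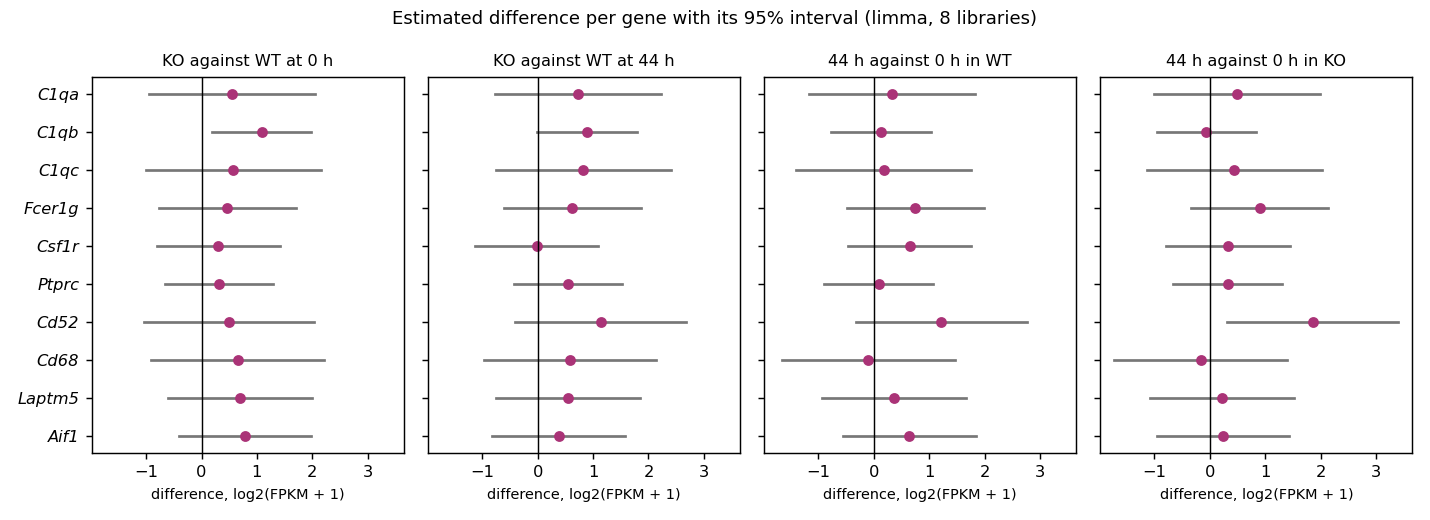
Limma estimate (point) and 95% interval (bar) of the difference in log2(FPKM + 1) for each of the 10 genes, in 4 comparisons of group means over 8 libraries. Intervals reach 0.90 to 1.58 to either side of the estimate, and those of C1qb in KO against WT at 0 h and of Cd52 in KO at 44 h against 0 h exclude 0 before adjustment.

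The WT libraries gave the difference with PMSG alone. Cd52 was 9.98 ± 0.887 FPKM at 0 h and 25.3 ± 9.03 at 44 h (SD, n = 2), and Fcer1g 22.9 ± 4.45 and 38.7 ± 2.11. These were the 2 furthest from 0 in WT, at 1.22 (log2, SE 0.654, limma adjusted p = 0.295) and 0.75 (SE 0.524, adjusted p = 0.417). The libraries at 44 h lay above those at 0 h without overlap for 5 of the 10 (22.5% of tested genes): Cd52, Fcer1g, Csf1r, Aif1 and Laptm5. The C1q chains overlapped between the times, at differences of 0.33 (C1qa), 0.13 (C1qb) and 0.18 (C1qc), and Cd68 was 16.0 ± 2.44 at 0 h and 14.8 ± 0.760 at 44 h (-0.094; 0.034 after quantile normalization and 0.036 after median-of-ratios scaling). The difference was above 0 in 9 of the 10 (38% of tested genes), with a median of 0.35 where that over all tested genes was -0.13. That median was 0.15 without treated WT replicate 1 and 0.54 without treated WT replicate 2. Median-of-ratios scaling moved the median over all tested genes to -0.014 and that of the 10 to 0.47. Limma called 0 of the 10 (0.0804% of tested genes), with 0 at an unadjusted p under 0.05 (24.1%). With the 4 WT libraries alone Cd52 had an adjusted p of 0.0546, the smallest of the 10 genes in this comparison over all alternatives.

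In KO, the time comparison depended on which 0 h library served as the start. Cd52 was 19.4 ± 18.8 FPKM at 0 h and 55.9 ± 13.4 at 44 h (SD, n = 2), and it was the 1 gene of the 10 whose libraries at 44 h lay above both at 0 h (14.3% of tested genes). Its difference was 1.86 (log2, SE 0.654, limma adjusted p = 0.174, unadjusted p = 0.0246), at 2.98 without untreated KO replicate 1 and 0.74 without untreated KO replicate 2. The median over the 10 was 0.32, at 1.12 without untreated KO replicate 1 and -0.61 without untreated KO replicate 2. Over all tested genes it was -0.11, and 8 of the 10 were above 0 (39.3% of tested genes). After median-of-ratios scaling these medians were 0.41 and 0.011. C1qb differed by -0.060 (0.079 after median-of-ratios scaling) and Cd68 by -0.16. Limma called 0 of the 10 (0.139% of tested genes), and 1, Cd52, had an unadjusted p under 0.05 (21.1%). Without the treated library labelled KO replicate 1 the median was 0.39.

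The PMSG difference was also compared between genotypes. The interaction (KO change minus WT change) was above 0 in 5 of 10 genes (49.2% of tested genes), with a median of 0.044, and ran from -0.41 (Aif1) to 0.64 (Cd52). Limma called 0 of the 10 (0.0438% of tested genes), with 0 at an unadjusted p under 0.05 (1.82%), and the 95% intervals reached 1.27 to 2.23 to either side. The median was 0.96 without untreated KO replicate 1, -0.96 without untreated KO replicate 2 and 0.051 without the treated library labelled KO replicate 1.

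The 10 genes varied together over the libraries. The Pearson correlation of log2(FPKM + 1) had a median of 0.84 over the 45 pairs (8 libraries, which the pairs share), from 0.52 (Csf1r with C1qb) to 0.99 (C1qa with C1qc). With the mean of the other 9, C1qa, C1qc and Laptm5 correlated at 0.98, 0.97 and 0.96, and Ptprc at 0.77. These are descriptions of 8 libraries in which untreated KO replicate 1 stands high and untreated KO replicate 2 low.

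Beside that shared pattern, C1qb and Cd52 are described by their ratios to other genes of the set within each library. The ratio of C1qc to C1qa was 1.45 to 1.83 in all 8 libraries. The ratio of C1qb to C1qa was 1.79 to 2.46 in 7 libraries and 4.81 in untreated KO replicate 2, and that of C1qb to C1qc was 1.23 to 1.40 in the 7 and 2.90 in that library. C1qb was thus at 40.5 FPKM where its partner chains were at their lowest. Of all tested genes, 8.56% were at least as far above the other 7 libraries in their ratio to C1qa in that library.

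The ratio of Cd52 to C1qa was 0.755 and 0.785 in untreated WT, 0.749 and 0.726 in untreated KO, 1.56 and 1.42 in treated WT and 1.56 and 2.51 in treated KO. The libraries of the 2 times did not overlap in this ratio, in either genotype. The ratio of Cd68 to Fcer1g went the other way, at 0.548 to 0.979 at 0 h and 0.354 to 0.402 at 44 h. Of the 45 ratios between 2 of the genes, 14 separated the 4 libraries at 44 h from the 4 at 0 h (9.24% of ratios of any tested gene to 1 of the 10), 8 of them with Cd52. These ratios share genes and libraries. An exact two-sided permutation test gave p = 0.0286 for each of the 14, the smallest that 4 libraries against 4 allow. Full separation fixes that value, so the test adds nothing to the separation, and it took no account of genotype. None of the 14 passed after adjustment over the 45. Of the 45, 0 separated the 4 KO from the 4 WT libraries (4.74% of ratios of any tested gene to 1 of the 10).

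**Figure D3:**
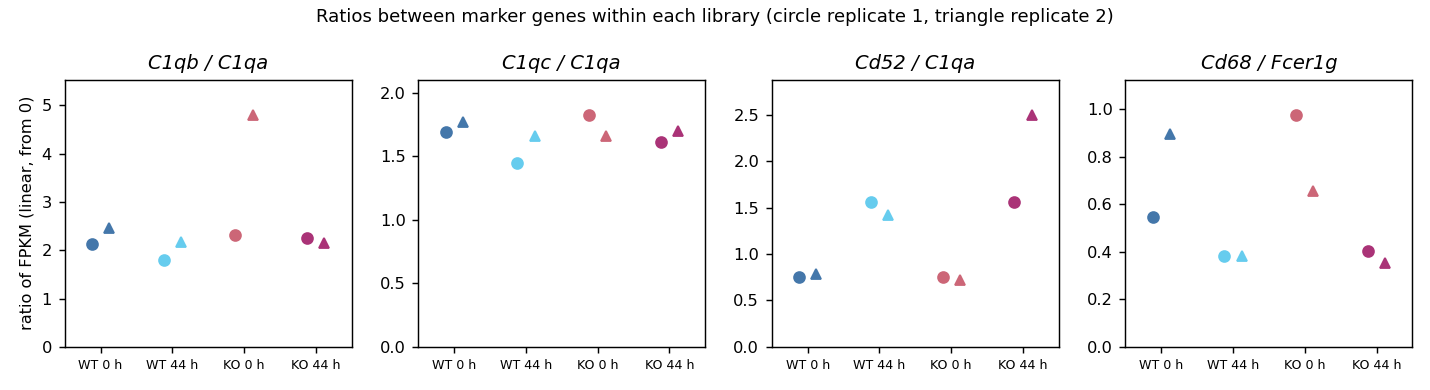
Ratio of FPKM between 2 of the genes within each library (vertical axes, linear from 0) in the 4 groups, with circles for replicate 1 and triangles for replicate 2. C1qb over C1qa is 4.81 in untreated KO replicate 2 and 1.79 to 2.46 elsewhere, C1qc over C1qa stays between 1.45 and 1.83, and Cd52 over C1qa is 0.726 to 0.785 at 0 h and 1.42 to 2.51 at 44 h.

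Other genes were ranked by how alike their library pattern was to the mean of the 10. Among 9144 other genes that reached 5 FPKM in a library, the 10 with the highest Pearson correlation over the 8 libraries were Fcgr3 (0.98), Cd53, Ms4a7, Ctss, Trem2, Lilrb4, Tyrobp, H1fx, Pla2g7 and Pld4 (0.94). All but H1fx, a linker histone, and Pla2g7 were on the list of other macrophage and myeloid markers. That list, drawn up with earlier results of these data known, held 19 of the 9144 genes ranked. Cd53, Lilrb4, H1fx and Pld4 reached 5 FPKM in KO libraries only, so they were ranked through the libraries in which they were high. Fcgr3, a low-affinity IgG receptor, was 10.97 and 7.24 FPKM in untreated WT, 12.8 and 9.71 in treated WT, 29.8 and 5.21 in untreated KO, and 21.6 and 23.6 in treated KO. Tyrobp, the adaptor DAP12, was 62.3 and 11.2 in untreated KO and 17.2 to 38.6 in the other libraries.

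The wider immune lists were read next to the 10 genes. Of the 26 tested genes on the macrophage and myeloid list, limma called 0 in each of the 5 comparisons. Over all tested genes it called 0.0219% to 0.139%, the share to set beside each list below too. Fcgr1, a gene of these 26 named after its values were seen, reached 1 FPKM in KO libraries only, so it was tested through them. The list's medians were 0.48 (KO against WT at 0 h), 0.43 (at 44 h), 0.36 (44 h against 0 h in WT) and 0.38 (in KO). Over all tested genes they were 0.034, 0.046, -0.13 and -0.11 in that order. Without the treated library labelled KO replicate 1 the list's median was 0.62 at 44 h and 0.67 for the time comparison in KO. Its summed level was 967 FPKM in untreated KO replicate 1, 164 in replicate 2, 229.8 to 382 in WT, and 446 and 537 in treated KO. Lyz2, the macrophage lysozyme and the most abundant gene on it, was 588 FPKM in untreated KO replicate 1 and 82.0 to 240.1 in the other 7.

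Antigen presentation genes gave another order. The MHC class II and dendritic cell list summed to 225 FPKM in KO replicate 1 and 89.1 in replicate 2 at 0 h, 155 and 59.2 in untreated WT, 101 and 73.9 in treated WT, 108 in the treated library labelled KO replicate 1 and 245 in treated KO replicate 2. Cd74, the class II invariant chain, was 112 in treated KO replicate 2 and 21.3 to 89.5 elsewhere. Limma called 0 of the 7 tested genes in any comparison.

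Most markers of lymphocytes were low, with a few exceptions. Of 17 T and NK cell genes in the table, 9 were under 1 FPKM in all 8 libraries, and Cd3e was at most 0.258. The list summed to 41.4 FPKM in treated KO replicate 2 and 7.71 to 19.0 in the others, with Gzma, a cytotoxic granule protease, at 16.0 in the former and 0.740 to 4.27 elsewhere. Lck, the other of its 2 most abundant genes, was 4.69 in treated KO replicate 2 and 1.29 to 4.87 elsewhere. Among B cell genes, Pax5 was listed at 0 in 7 libraries, while Vpreb3 (10.7 to 60.2 FPKM) and Ms4a1 (5.49 to 20.6) were present in all 8. The B cell list summed to 37.5 and 61.7 FPKM in untreated WT and 19.9 and 19.7 in treated WT. In KO it summed to 78.6 and 59.8 at 0 h and 32.5 and 23.6 at 44 h, so it was lower at 44 h in both genotypes. Neutrophil and mast cell genes summed to 111 and 151 FPKM in treated KO, 76.4 and 30.7 in treated WT and 9.44 to 27.96 at 0 h. S100a8, a neutrophil calcium-binding protein, was 72.9 and 43.2 in treated KO, 14.0 and 12.2 in treated WT and 0 to 8.90 at 0 h. Camp, the other of the 2 most abundant genes on that list, did not separate the treated genotypes. It was 0.803 in the treated library labelled KO replicate 1, 55.8 in treated KO replicate 2, 28.9 and 6.44 in treated WT and 0 to 0.223 at 0 h. None of these lists had a gene called by limma in the 5 comparisons. Cd3e and Pax5 were named after their values were seen.

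Ligands, complement partners and lysosomal genes form the surroundings in which C1q and CSF1R act. Of 15 tested growth factors and chemokines limma called 0, and Mif, a cytokine also made by many non-immune cells, was 1121 to 1795 FPKM. Il34 and Csf1, the ligands of the CSF1 receptor and named after their values were seen, were 3.47 to 16.7 and 0.829 to 2.09. Of 19 tested complement genes outside C1q it called 0. Clu, a complement and chaperone protein, was 357 to 815.

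Of 20 phagocytosis and lysosome genes limma called 0, and their summed level was 2169 to 5504 FPKM. For KO against WT their median difference was -0.24 at 0 h (0.034 over all tested genes) and -0.40 at 44 h (0.046). The difference was above 0 in 7 of the 20 at 0 h and in 5 at 44 h (54.6% and 55.5% of tested genes). Ctsl, a cysteine protease, was 951 to 3481. Ctsd, an aspartic protease, was 433 and 127 in untreated KO and 206 to 360 elsewhere. Gpnmb, a glycoprotein of lipid-laden macrophages named after its values were seen, was 43.0 FPKM in untreated KO replicate 1 and 2.51 to 8.54 in the other 7 libraries. At 0 h it was among the 7 genes above 0 (1.31, limma adjusted p = 0.710), against the direction of most of the list.

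Markers of other cells moved with the 10 genes in part. Erythroid genes, which mark red blood cells, summed to 953 FPKM in untreated KO replicate 1 and 108 in replicate 2, to 687 and 99.1 in untreated WT, and to 361 and 339 in treated WT. They were at their lowest, 40.2, in the treated library labelled KO replicate 1, where the 10 genes summed to 295, and were 189 in KO replicate 2. Endothelial markers summed to 23.7 and 17.6 in untreated KO, 14.3 in the treated library labelled KO replicate 1 and 50.4 in KO replicate 2, and 12.6 to 40.0 in WT. Theca and stroma genes summed to 97.4 to 135 in the 4 untreated libraries, 586 and 602 in treated WT, 257 in the treated library labelled KO replicate 1 and 598 in replicate 2. Lhcgr, the LH receptor, which granulosa cells also express after FSH stimulation, was 299 and 308 in treated WT, 18.8 in the treated library labelled KO replicate 1 and 261 in replicate 2. Without Lhcgr the theca and stroma sums of these 4 libraries were 302, 277, 238 and 337. Surface epithelium and oviduct genes summed to 202 and 119 in untreated KO, to 149 to 590.1 in WT, to 727 in treated KO replicate 2 and to 131 in the treated library labelled KO replicate 1. Without Ovgp1, the oviductal glycoprotein, the highest were 447 in treated KO replicate 2 and 224 in treated WT replicate 1. Oocyte genes summed to 3372 and 3027 in untreated KO and to 1178 and 2051 in untreated WT. They summed to 630 and 617 in treated WT, 1529 in the treated library labelled KO replicate 1 and 937 in treated KO replicate 2. All 10 oocyte genes lay higher in KO than in WT without overlap (27.3% of tested genes at 0 h and 23.9% at 44 h). Limma called 1 of them, Nlrp5, named after its values were seen, lower at 44 h than at 0 h in KO (adjusted p = 0.0478, 0.139% of tested genes called). The part of any of these lists in the differences of the 10 markers was not tested.

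**Figure D4:**
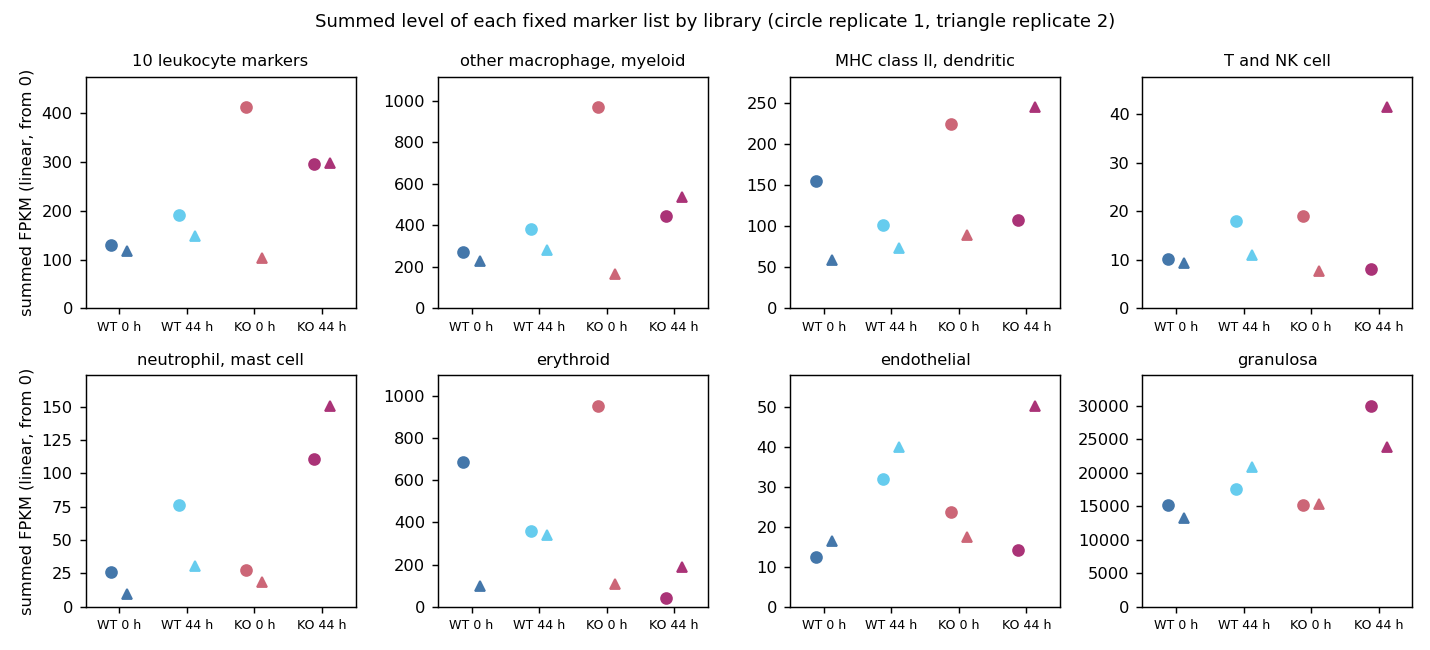
Summed FPKM of 8 marker lists (vertical axes, linear from 0, a scale per list) in the 4 groups, with circles for replicate 1 and triangles for replicate 2. The 10 leukocyte markers (412 against 104 FPKM in untreated KO) and the other macrophage genes (967 against 164) split the KO libraries at 0 h, granulosa markers (15179 against 15331) do not, and erythroid genes split them too (953 against 108) and are lowest, at 40.2, in the treated library labelled KO replicate 1.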

How the data were processed

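The authors deposited FPKM by gene symbol for each of the 8 libraries, per the file headers. The submitters' processing notes name Cufflinks 2.2.1, TopHat2 2.1.1 and mm9 as build, without roles. Annotation, strand setting and filters: not given in the sources used here. FPKM are not counts, so no count model was run. Reference names and promoter windows are of GRCm38, another build, so only those windows carry coordinates, in their own build.

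Values were tested as log2(FPKM + 1), which understates changes of low genes. Genes at 1 FPKM or more in 2 or more libraries were kept: 13688 of 23235, with all 10 markers. Limma 3.58.1 (R 4.3.3; 1 mean per group, trended empirical Bayes, two-sided) gave the differences and standard errors (SE), with Benjamini-Hochberg adjustment over all tested genes and calls under an adjusted p of 0.05. Values were simulated for all 8 libraries (13688 genes), with some genes shifted in treated WT. For 44 h against 0 h in WT the code recovered 13 of 67 genes shifted by 1 (log2), 52 of 67 shifted by 2 and 60 of 66 shifted by 3. It called 8 others falsely. Noise was independent between genes and spreads were shuffled among them. These rates therefore do not carry over to the 10 markers, which varied together. No 2 libraries held the same values.

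The markers and 14 further lists were chosen with earlier results of these data known. Besides the 10, the genes named are Cnot6, Cnot6l, some of the 2 most abundant of each list, and the 10 most like the mean marker profile (symbols of predicted, clone or short RNA genes left out); others are marked. Alternatives covered the pseudocount, the filter, scaling, a replicate block, the fit's samples, the empirical Bayes settings and each library left out.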

Additional observations from a re-analysis of the deposited data

How the results depend on the processing

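In all 5 comparisons limma called 0 of the 10 markers under each of the 9 other settings that applied and with each of the 8 libraries left out; the simulation recovered 13 of 67 genes shifted by 1 (log2). That simulation shuffled spreads among genes, so it gives no rate for the markers. FPKM of at least 5 in 2 libraries left 8 of the 10 to test. The smallest adjusted p was 0.161 for KO against WT at 0 h, 0.228 at 44 h, 0.0546 for 44 h against 0 h in WT, 0.143 in KO and 0.793 for the interaction. Over all tested genes limma called 5, 3, 11, 19 and 6 in that order, and from 3 to 9, 2 to 801, 4 to 1333, 3 to 1169 and 4 to 78 over the alternatives, the upper ends with a KO library left out (KO replicate 2 at 0 h, KO replicate 2 at 44 h, the library labelled KO replicate 1 at 44 h, the same library, and KO replicate 2 at 44 h). For 44 h against 0 h the calls were 7 higher and 4 lower in WT and 10 and 9 in KO, against 6 and 1 and 13 and 6 after quantile normalization.

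No shift shared by replicate number was seen: the correlation of replicate differences between groups was -0.11 to -0.0068. This cannot show whether libraries with the same number shared animals or a batch. With the number as a replicate block, limma called 0 of the 10 in each comparison, with smallest adjusted p-values of 0.610, 0.634, 0.301, 0.218 and 0.9999, and 4, 3, 7, 6 and 5 of all tested genes.

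With single libraries left out, the marker median ranged from -0.42 to 1.64 for KO against WT at 0 h, from 0.49 to 0.71 at 44 h, from 0.15 to 0.54 for 44 h against 0 h in WT, from -0.61 to 1.12 for 44 h against 0 h in KO and from -0.96 to 0.96 for the interaction, the ends that include a sign change being those without KO replicate 1 or 2 at 0 h. The cause was not tested. A group left with 1 library was assumed to vary like the others. Cd52 ranged from 0.78 to 1.49 for KO against WT at 44 h and from 0.86 to 1.58 for 44 h against 0 h in WT. Where a gene turned sign, the range for KO against WT at 0 h was Ptprc (-0.12 to 0.75), Cd52 (-0.62 to 1.62), Csf1r (-0.38 to 0.99), Aif1 (-0.034 to 1.60), C1qa (-0.57 to 1.68), C1qc (-0.64 to 1.79), Fcer1g (-0.47 to 1.40), Cd68 (-0.55 to 1.86) and Laptm5 (-0.27 to 1.66), and at 44 h Csf1r (-0.36 to 0.33). For 44 h against 0 h it was, in WT, Ptprc (-0.11 to 0.29), C1qb (-0.026 to 0.28), C1qc (-0.013 to 0.38) and Cd68 (-0.24 to 0.053), and in KO Ptprc (-0.20 to 0.84), Csf1r (-0.36 to 1.01), Aif1 (-0.58 to 1.06), C1qa (-0.63 to 1.61), C1qb (-0.71 to 0.59), C1qc (-0.78 to 1.66), Fcer1g (-0.031 to 1.84), Cd68 (-1.37 to 1.04) and Laptm5 (-0.75 to 1.19). For the interaction it was Ptprc (-0.28 to 0.75), Cd52 (-0.48 to 1.76), Csf1r (-1.003 to 0.36), Aif1 (-1.23 to 0.41), C1qa (-0.95 to 1.29), C1qb (-0.83 to 0.46), C1qc (-0.96 to 1.47), Fcer1g (-0.78 to 1.09), Cd68 (-1.27 to 1.13) and Laptm5 (-1.11 to 0.82). With all libraries, Cd68 in WT turned to 0.034 (quantile) and 0.036 (median-of-ratios), and C1qb in KO to 0.079 (median-of-ratios).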
